A study of Saccharomyces cerevisiae with 6 samples.

Results

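The cytosolic ribosome of budding yeast is built from 78 proteins counted in these data, and the transcripts of all of them were followed gene by gene in 6 libraries. Members were the protein-coding genes whose R64 symbol begins with RPL, RPS or RPP and a digit. This matched 138 of the 6931 loci in the count table. RPP1, which encodes a subunit of the tRNA- and rRNA-processing enzymes RNase P and RNase MRP and shares only its letters with the stalk proteins, was set aside, which left 137 genes. Of these, 76 belong to the large subunit, 56 to the small subunit and 5 to the P stalk of the large subunit. The genes form 59 pairs of A and B copies and 19 single-copy genes.

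The series title names mitochondrial import stress, and its samples compare PSD1 overexpression, with and without PDR3, with control cells. PSD1 encodes the phosphatidylserine decarboxylase of the inner mitochondrial membrane and PDR3 a zinc-cluster transcription factor. There were 3 groups of 2 samples, each in the W303 strain background, in YPR (yeast extract at 1%, peptone at 2% and raffinose at 2%). The pdr3Δ group carried a PDR3 deletion together with a 2µ (multicopy) plasmid that drives PSD1 from the GAL promoter. The PSD1 overexpression group carried the same plasmid with PDR3 intact, and the WT group was the control. The labels give an induction with 2% galactose for 4 h, with a plus-or-minus sign, and do not say which samples received it. Separate cultures are not stated for the replicates, so each p-value reflects only how far these samples differ, which may be technical.

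A ribosome holds 1 copy of nearly every one of its proteins, so the cell makes them in matched amounts. An ancient genome duplication left most yeast ribosomal proteins with a pair of genes, named A and B, whose proteins are identical or nearly so. Transcription of these genes depends on Rap1, Fhl1, Ifh1 and Sfp1, follows TOR and protein kinase A signalling, and is known to drop under many stresses.

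Libraries held 10220872 to 12315448 counts. PSD1 stood at 9370 and 9071 CPM (counts scaled to the library total) in pdr3Δ and 14466 and 16489 CPM in PSD1 overexpression, against 1495 and 1319 CPM in WT. PDR3 had 3 and 9 counts in pdr3Δ and 2283 and 2245 counts in PSD1 overexpression, against 724 and 798 counts in WT. Both genes fitted their labels, and PSD1 was lower in pdr3Δ than in PSD1 overexpression by 0.75 on the log2 scale (edgeR adjusted p = 0.000668). GAL1, which galactose induces, stood at 8385 and 8038 CPM in pdr3Δ and 6399 and 6009 CPM in PSD1 overexpression, against 42.1 and 18.8 CPM in WT. Carbon source, plasmid and PSD1 level therefore cannot be told apart in any comparison with WT. In pdr3Δ over PSD1 overexpression, the PDR3 deletion and the lower PSD1 level cannot be told apart.

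Ribosomal protein genes took a smaller part of the library in both PSD1-overexpressing groups than in WT. They made up 7.33 and 7.41% of all counts in pdr3Δ and 6.40 and 6.09% in PSD1 overexpression, against 10.4 and 10.8% in WT. The groups did not overlap. These are relative amounts in bulk RNA, in which less RNA per cell and fewer cells of a kind cannot be told apart. Within the ribosomal protein counts, the composition moved little. Large-subunit genes gave 49.3 to 50.2%, small-subunit genes 44.6 to 45.6% and stalk genes 4.95 to 5.36% across the 6 libraries. The A copies gave 52.6 to 53.0% of the counts of all pairs in every library.

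With PSD1 overexpression, nearly every ribosomal protein gene was lower than in WT, by a median of 1.70-fold. Of 137 genes tested, 135 fell and 1 rose at an adjusted p under 0.05 (edgeR quasi-likelihood test, Benjamini-Hochberg over 6171 loci), and only RPL43A did not pass. Over all tested loci, 55.8% were called in this comparison and 27.9% were called lower. The median log2 fold change of the 137 genes was -0.76, against 0.01 over all tested loci. CPM of the 2 groups did not overlap for any of the 137 genes, with 136 lower and 1 higher, where 38.4% of all loci were separated in the lower direction and 39.5% in the higher.

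**Figure D1:**
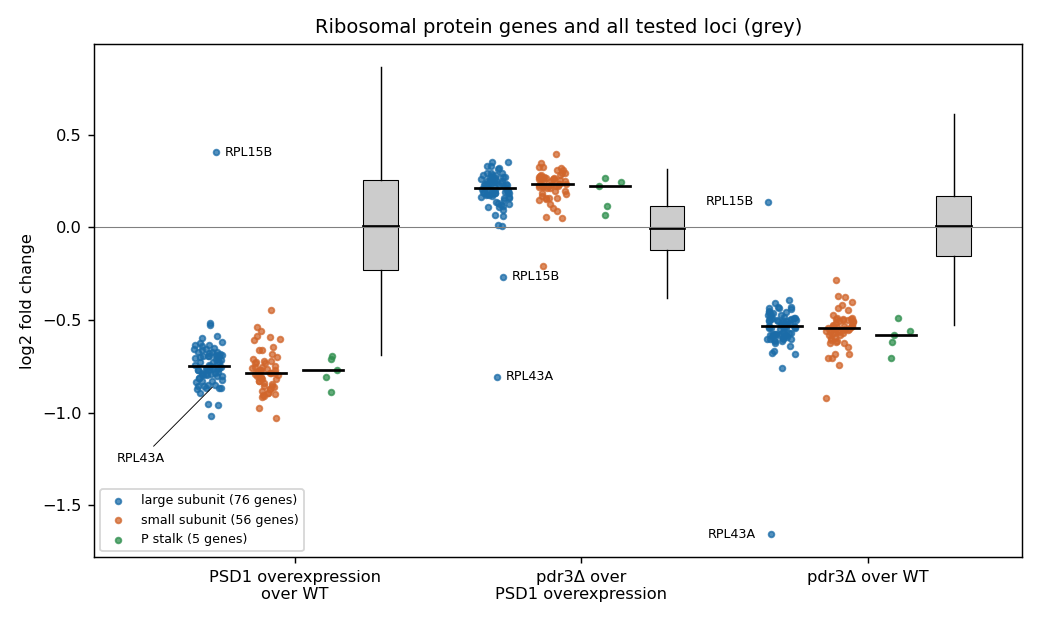
Log2 fold change (vertical axis) of each ribosomal protein gene in the 3 comparisons, coloured by subunit, with black lines at the medians. Grey boxes show all tested loci (median and quartiles, with lines to the 5th and 95th percentiles). The genes lie in a narrow band around -0.76, 0.22 and -0.54, with RPL15B above the band, below it and above it again, and RPL43A, which has under 15 counts in every library, far from it in the comparisons of pdr3Δ.

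The large subunit fell by a median of 0.75 on the log2 scale, with 74 of its 76 genes lower. The small subunit fell by 0.79, with all 56 genes lower, and the stalk by 0.77, with all 5 lower. Single-copy genes (median -0.78), A copies (-0.76), B copies (-0.75), genes with introns (-0.76, 89 genes) and genes without introns (-0.76, 48 genes) had nearly the same medians. When the CPM of A and B copies was summed to 1 value per protein, the 78 log2 changes had a median of -0.76 and an SD of 0.08. They ran from -0.96 for RPL43, for which nearly all listed counts come from the B copy, to -0.56 for RPS30.

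Among the genes of the large subunit, RPL3, which lies close to the peptidyl transferase centre, is the longest of the 137. It stood at 2741 and 2501 CPM in PSD1 overexpression, against 4529 and 4381 CPM in WT (log2 fold change -0.77, SE 0.06, adjusted p = 4.61e-06, edgeR). RPL9A, a copy of the gene for a protein near the base of the stalk, had 418 and 383 CPM in PSD1 overexpression, against 795 and 827 CPM in WT. Its log2 fold change of -1.02 (SE 0.06, adjusted p = 3.05e-07, edgeR) was the largest fall of a large-subunit gene. The log2 fold changes of RPL43B (-0.96) and RPL41A (-0.95) came next. RPL41A differs from RPL41B (-0.64) at 1 coding base, so the counts of these copies may not be well separated. At the other end, RPL14B changed by -0.52 and RPL22B by -0.52, and both were still called (adjusted p = 6.68e-06 and 3.34e-05, edgeR).

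In the small subunit, RPS22B showed the largest fall of all 137 genes. It had 142 and 134 CPM in PSD1 overexpression, against 278 and 288 CPM in WT, a log2 fold change of -1.03 (SE 0.05, adjusted p = 1.39e-07, edgeR). RPS20, a single-copy gene, fell by 0.92 on the log2 scale and RPS26B by 0.97. RPS31, whose protein is made as a fusion with ubiquitin, had the highest count per kilobase of coding length of the 137 genes. It stood at 1498 and 1391 CPM in PSD1 overexpression, against 2608 and 2756 CPM in WT, a log2 fold change of -0.89 (adjusted p = 8.80e-07, edgeR). The smallest fall of a gene in this comparison was that of RPS30A, at 310 and 283 CPM in PSD1 overexpression, against 388 and 418 CPM in WT (log2 fold change -0.44, SE 0.06, adjusted p = 0.000116, edgeR).

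The P stalk recruits the translational GTPases to the ribosome. RPP0 forms its base and carries the acidic proteins made from RPP1A, RPP1B, RPP2A and RPP2B. RPP0 stood at 1240 and 1185 CPM in pdr3Δ and 1144 and 1173 CPM in PSD1 overexpression, against 2078 and 1870 CPM in WT. Its log2 fold change was -0.77 in PSD1 overexpression over WT (adjusted p = 3.38e-06, edgeR), and 0.07 in pdr3Δ over PSD1 overexpression (adjusted p = 0.491, edgeR). The 4 acidic-protein genes fell by 0.69 (RPP1B) to 0.89 (RPP2A) in PSD1 overexpression. RPP1A, RPP2A and RPP2B rose in pdr3Δ over PSD1 overexpression, by 0.22, 0.27 and 0.25 on the log2 scale, and RPP1B had a log2 fold change of 0.12 that did not pass (adjusted p = 0.110, edgeR). The call of RPP1A was lost in 5 of 17 alternatives, that of RPP2B in 2 and that of RPP2A in 1.

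The gene that went the other way was RPL15B, the minor copy of the gene for a large-subunit protein that sits in the core of the subunit. RPL15B (YMR121C, R64 chrXIII:509734-510348, minus strand, no intron) had 52.9 and 59 CPM in PSD1 overexpression, against 44.1 and 40.3 CPM in WT. It rose by 0.41 on the log2 scale (SE 0.08, adjusted p = 0.00135, edgeR), and its groups did not overlap. Its partner RPL15A (YLR029C, chrXII:201976-202590, minus strand, no intron) had 1122 and 1017 CPM in PSD1 overexpression, against 1755 and 1824 CPM in WT, and fell by 0.74 (SE 0.06, adjusted p = 3.31e-06, edgeR). In pdr3Δ, RPL15B stood at 45.7 and 47.2 CPM and RPL15A at 1238 and 1259 CPM. Against PSD1 overexpression, RPL15B was lower in pdr3Δ by 0.27 (adjusted p = 0.0349, edgeR) and RPL15A was higher by 0.22 (adjusted p = 0.0262, edgeR). This call of RPL15B was lost with DESeq2 (adjusted p = 0.106), with FPKM (0.0691, limma) and when any 1 of the 4 libraries compared was left out (0.0529 to 0.245, edgeR). The A copy gave 96.4 and 96.4% of the counts of the pair in pdr3Δ and 95.5 and 94.5% in PSD1 overexpression, against 97.6 and 97.8% in WT.

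**Figure D2:**
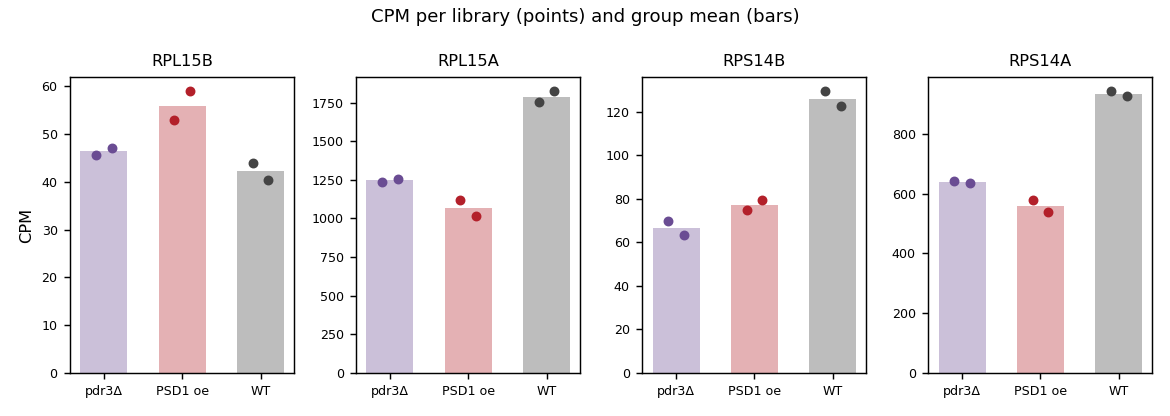
CPM per library (points) and group mean (bars) for both copies of RPL15 and RPS14, with pdr3Δ, PSD1 overexpression (PSD1 oe) and WT from left to right, each panel on its own axis. RPL15B is highest in PSD1 overexpression (52.9 and 59 CPM), where RPL15A is lowest, and RPS14B is lowest in pdr3Δ (70.0 and 63.3 CPM).

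The sequences of the RPL15 copies are shown because the transcripts moved apart while the proteins differ at 2 of 204 residues. The coding sequences differ at 42 bases (93.2% identity). A stretch near the 3′ end (coding positions 555 to 614) is given from the RefSeq R64 genome, with the 10 differing bases in capitals, each of which marks a place where a read can be assigned to 1 copy.
RPL15A: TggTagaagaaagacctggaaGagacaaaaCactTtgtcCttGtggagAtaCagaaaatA
RPL15B: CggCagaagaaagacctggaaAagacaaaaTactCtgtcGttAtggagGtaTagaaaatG

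The 300 bases before each start codon, in the direction of transcription and from the same genome, are given below for RPL15A (chrXII:202591-202890, minus strand) and RPL15B (chrXIII:510349-510648, minus strand). Capitals mark the letters GACGCA, listed for Fhl1, and AAAATTTT, listed for Sfp1. RPL15A holds GACGCA starting 184 bases and AAAATTTT starting 179 and 161 bases before the start codon, the first pair overlapping by 1 base. RPL15B holds none of the letters searched in this window.
RPL15A: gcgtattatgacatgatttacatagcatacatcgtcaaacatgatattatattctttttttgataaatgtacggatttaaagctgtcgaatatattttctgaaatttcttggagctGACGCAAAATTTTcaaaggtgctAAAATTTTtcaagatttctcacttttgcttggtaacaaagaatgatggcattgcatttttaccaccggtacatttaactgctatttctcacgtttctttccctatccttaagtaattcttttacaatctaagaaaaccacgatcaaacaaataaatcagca
RPL15B: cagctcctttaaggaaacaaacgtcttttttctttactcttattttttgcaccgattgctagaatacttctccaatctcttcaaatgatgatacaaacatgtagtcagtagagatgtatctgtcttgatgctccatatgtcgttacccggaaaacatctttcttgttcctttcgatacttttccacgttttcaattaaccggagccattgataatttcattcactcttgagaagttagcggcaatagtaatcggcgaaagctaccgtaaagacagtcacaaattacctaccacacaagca

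Across the 500 bases before the start codon of all 137 genes, on both strands, the longer Rap1 motif was found in 19 genes (13.9%), against 0.942% of 5945 genes. The shorter Rap1 letters ACCCNNACA, which lie inside it, were found in 54 genes (39.4%), against 5.48% of all. The letters for Fhl1 (GACGCA) were found in 15.3% of the members, against 10.6% of all. Those for Sfp1 (AAAATTTT, 12.4% against 12.5%), Abf1 (4.38% against 5.43%) and the stress response element (AGGGG, 27% against 34.2%) were about as frequent, or less so, in the members. As an example of the longer Rap1 motif, the stretch around the match that starts 412 bases before the start codon of RPL14A (chrXI:431469-431529, plus strand) is given with the match in capitals.
RPL14A: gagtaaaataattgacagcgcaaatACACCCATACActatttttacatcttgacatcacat

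Genes with and without these letters changed by nearly the same amount. In PSD1 overexpression over WT the 54 genes with ACCCNNACA had a median log2 fold change of -0.76 and the 83 genes without it -0.77. The 21 genes with GACGCA had a median of -0.73, against -0.77 in the 116 without. A match is a description of these letters and not of a bound site.

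In pdr3Δ over PSD1 overexpression, most ribosomal protein genes were higher, by a median of 1.17-fold. Of the 137 genes, 99 rose, RPL15B fell and 37 did not pass (edgeR), where 20.9% of all loci were called, 11.8% higher and 9.12% lower. The median log2 fold change was 0.22, against 0.00 over all loci, with 0.21 in the large subunit (51 of 76 higher), 0.23 in the small subunit (45 of 56) and 0.22 in the stalk (3 of 5). This count, and that of all loci called, fell when any library of either group was left out. Both fell most without the second PSD1 overexpression library. Each such fit leaves 1 library in a group. The median log2 fold change of the 137 genes was 0.18 without the second PSD1 overexpression library, against -0.0015 over all loci. It was 0.27 without the first PSD1 overexpression library, 0.235 without the first pdr3Δ library and 0.22 without the second. The 137 genes share these libraries and are not separate observations.

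RPS10A rose most, at 549 and 583 CPM in pdr3Δ, against 439 and 422 CPM in PSD1 overexpression (log2 fold change 0.40, adjusted p = 0.00344, edgeR). RPL9A, RPS26B, RPL43B and RPS22B, which were among the largest falls in PSD1 overexpression over WT, rose by 0.35, 0.35, 0.36 and 0.33, and both comparisons share the PSD1 overexpression libraries. Both copies of RPL6 stood at the other end. RPL6A had 411 and 407 CPM in pdr3Δ, against 403 and 410 CPM in PSD1 overexpression (log2 fold change 0.01, adjusted p = 0.948, edgeR), and RPL6B had a log2 fold change of 0.01 (adjusted p = 0.908, edgeR). Their groups overlapped. RPS14B had a log2 fold change of -0.21 that did not pass (adjusted p = 0.0538, edgeR), with 70.0 and 63.3 CPM in pdr3Δ, against 74.8 and 79.6 CPM in PSD1 overexpression.

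Against WT, ribosomal protein genes were still lower in pdr3Δ, by a median of 1.46-fold. All genes but RPL15B were called lower (136 of 137, edgeR), where 39.1% of all loci were called, 19.5% lower and 19.6% higher, and the median log2 fold change was -0.54 against 0.01 over all loci. RPL15B had a log2 fold change of 0.14 (adjusted p = 0.190, edgeR). Summed per protein, the 78 changes had an SD of 0.06 and ran from -0.70 for RPP0 to -0.38 for RPS30. The largest fall of a gene with more than a few counts was that of RPS14B, at 70.0 and 63.3 CPM in pdr3Δ, against 130 and 123 CPM in WT (log2 fold change -0.92, SE 0.07, adjusted p = 3.98e-06, edgeR). The smallest called fall was again that of RPS30A (-0.29, adjusted p = 0.00312, edgeR).

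The balance between the A and B copies was tested as the log2 ratio of their counts with limma over 502 paralog pairs of the genome, 59 of them ribosomal. In PSD1 overexpression over WT, 14 ribosomal pairs (23.7%) had a changed ratio, 8 towards the A copy and 6 towards the B copy, where 49.6% of all 502 pairs and 53.0% of the other 443 pairs were called. The median absolute change of the ratio was 0.08 on the log2 scale for ribosomal pairs and 0.32 for the others. Ribosomal pairs were also measured more closely, with a median SE of 0.05 against 0.09. The other pairs were not matched to them for sequence identity, which had a median of 93.2% between the coding sequences of ribosomal copies. Of the ribosomal pairs, 4 (6.78%) were called in pdr3Δ over PSD1 overexpression, where 17.3% of all pairs were, and in pdr3Δ over WT 7 (11.9%), where 37.8% of all pairs were. The median absolute changes were 0.07 and 0.05 for ribosomal pairs and 0.17 and 0.23 for the others.

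**Figure D3:**
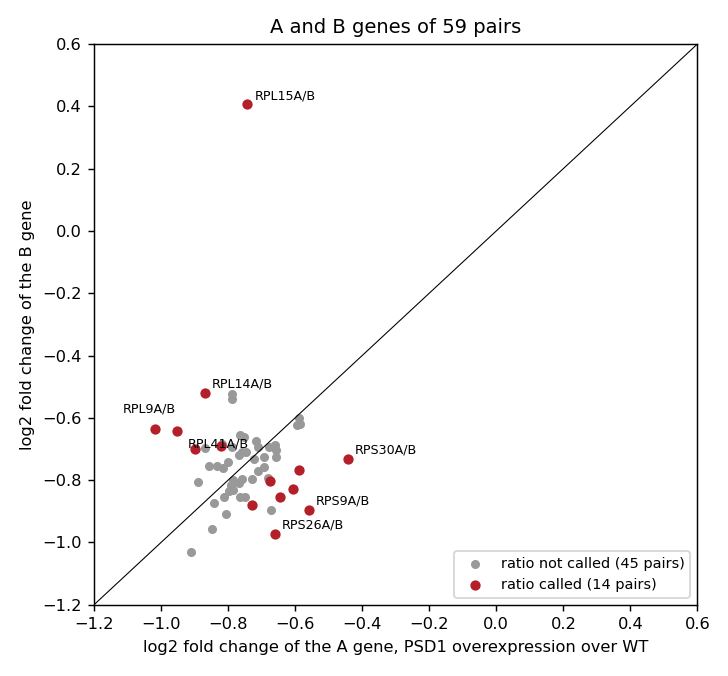
Log2 fold change of the A copy (horizontal) and the B copy (vertical) of the 59 pairs in PSD1 overexpression over WT, with red points for the 14 pairs whose ratio was called by limma and a line where both copies change equally. Most pairs lie near the line around -0.76, and RPL15A/B lies far above it at -0.74 and 0.41. RPL43A/B, whose A copy has few counts, is among the grey points.

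The RPL15 ratio showed the largest move of a ribosomal pair in PSD1 overexpression over WT, at -1.15 (SE 0.11, adjusted p = 0.000211, limma). It changed by 0.49 in pdr3Δ over PSD1 overexpression (adjusted p = 0.0271, limma) and by -0.66 in pdr3Δ over WT (adjusted p = 0.00400, limma). In both comparisons of pdr3Δ the RPL43 ratio had a larger change that did not pass, of -1.28 over PSD1 overexpression and -1.12 over WT (adjusted p = 0.0780 and 0.0741, limma). The next pairs in PSD1 overexpression over WT moved within a common fall, with one copy falling more than the other. RPL14A had 250 and 238 CPM in PSD1 overexpression, against 445 and 447 CPM in WT, and RPL14B had 183 and 179 CPM in PSD1 overexpression, against 255 and 262 CPM in WT. The A share of this pair was 57.8 and 57.1% in PSD1 overexpression, against 63.6 and 63.0% in WT (log2 ratio change -0.35, SE 0.05, adjusted p = 0.00130, limma).

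RPL9 also moved towards its B copy, with an A share of 56.9 and 53.9% in PSD1 overexpression, against 61.5 and 62.1% in WT (log2 ratio change -0.38, adjusted p = 0.00302, limma). RPS10 did so by less, with a log2 ratio change of -0.20 (adjusted p = 0.0120, limma). This call was lost with edgeR's diffSpliceDGE (adjusted p = 0.148) and without the second PSD1 overexpression library. In the small subunit several pairs moved towards the A copy. RPS26, which lines the exit of the mRNA channel, had an A share of 64.4 and 65.1% in PSD1 overexpression, against 59.3 and 60.02% in WT (log2 ratio change 0.32, adjusted p = 0.00175, limma). RPS9, whose A copy is the minor one, had an A share of 26.6 and 26.5% in PSD1 overexpression, against 22.8 and 21.9% in WT (0.34, adjusted p = 0.00297, limma). RPS30 had an A share of 62.4 and 63.3% in PSD1 overexpression, against 57.8 and 58.3% in WT (0.29, adjusted p = 0.00340, limma). None of these shares overlapped between the 2 groups, but the pairs were named for their small p in this comparison, so this is no separate evidence.

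RPS14 was the pair with the smallest p in pdr3Δ over PSD1 overexpression. Its A copy gave 90.2 and 90.9% of the pair in pdr3Δ and 88.5 and 87.1% in PSD1 overexpression, against 87.9 and 88.3% in WT. The log2 ratio changed by 0.41 in pdr3Δ over PSD1 overexpression (SE 0.08, adjusted p = 0.0205, limma) and by 0.37 in pdr3Δ over WT (adjusted p = 0.0135, limma). In PSD1 overexpression over WT the change was -0.04 with a 95% interval of -0.24 to 0.16, and the libraries overlapped. RPS28, a protein close to the mRNA exit, had an A share of 67.4 and 67.8% in pdr3Δ and 66.6 and 66.4% in PSD1 overexpression, against 63.7 and 62.7% in WT. It was called in pdr3Δ over WT (0.28, adjusted p = 0.00525, limma) and in PSD1 overexpression over WT (0.21, adjusted p = 0.0132, limma).

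**Figure D4:**
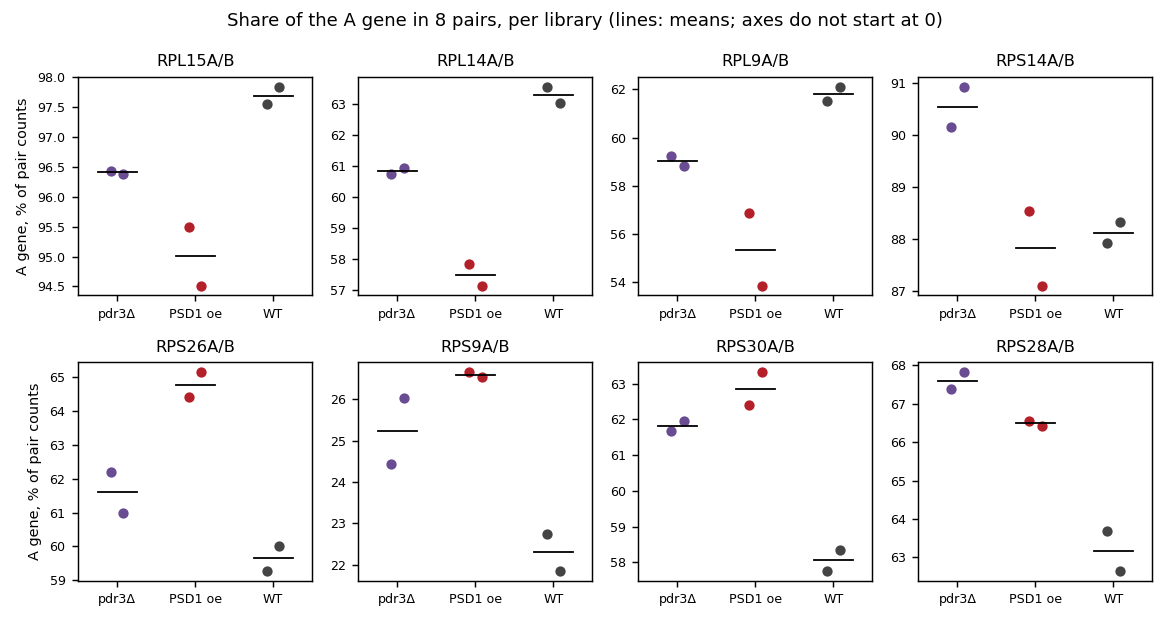
Share of the A copy in the counts of the pair (percent, vertical axis, not starting at 0) for 8 pairs in each library, with pdr3Δ, PSD1 overexpression (PSD1 oe) and WT from left to right and lines at the group means. RPL15, RPL14 and RPL9 have their lowest A share in PSD1 overexpression, RPS26, RPS9 and RPS30 their highest, and RPS14 its highest in pdr3Δ.

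Pair calls were sensitive to single libraries. In pdr3Δ over PSD1 overexpression the 4 calls of RPS14, RPL15, RPS26 and RPL14 were all lost without the second PSD1 overexpression library. Their log2 ratio changes in that fit were 0.31, 0.34, -0.17 and 0.18, and fewer of all pairs were called. When the first or the second pdr3Δ library was left out, fewer of the 4, and fewer of all pairs, were called. Without the second, the log2 ratio of RPL43, whose A copy has few counts, changed by -1.97. In PSD1 overexpression over WT fewer ribosomal pairs, and fewer of all pairs, were called when a library of either group was left out. The ribosomal calls became fewer in pdr3Δ over WT too. Most pairs showed no called change, with intervals of differing width. In PSD1 overexpression over WT the RPS0 ratio changed by 0.01 (95% interval -0.10 to 0.12, adjusted p = 0.854, limma) and the RPL43 ratio by 0.15 (-0.84 to 1.14, adjusted p = 0.790, limma).

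The copies differ in how well reads can tell them apart. Coding identity within the 59 pairs ran from 68.2 to 99.4% with a median of 93.2%, and the proteins of 21 pairs are identical. In 13 pairs under 75% of the 50-base windows of the A copy were unique, meaning found once in the R64 genome on either strand, or not at all where they span a splice junction, and in no other member's coding sequence. RPL1A and RPL1B are the closest pair by coding identity (99.4%), with 4 differing bases and 19.0% of windows unique. The first 60 coding bases of each show 2 of these differences, in capitals (RefSeq R64).
RPL1A: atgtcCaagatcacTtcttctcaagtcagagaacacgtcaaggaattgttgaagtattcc
RPL1B: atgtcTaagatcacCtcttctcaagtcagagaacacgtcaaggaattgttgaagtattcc

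The RPL1 ratio changed by 0.02 in PSD1 overexpression over WT, with a 95% interval of -0.17 to 0.22 (adjusted p = 0.849, limma). No source used here gives the read length or the treatment of reads that match both copies, so the split of such pairs is uncertain. RPL14 and RPL41 were the 2 of these 13 pairs with a called ratio in PSD1 overexpression over WT. The other 12 calls were in pairs with more distinct sequences, RPL15 (88.2% of windows unique), RPL9 (86.0%) and RPS26 (every window) being among the pairs named here.

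Which copy is major also depends on gene models on the opposite strand. Of the 137 genes, 16 are overlapped by an open reading frame annotated on the other strand. For most of the 16, counts were listed at that locus in a share close to the overlapped part of the gene. RPL43A had 2 and 6 counts in pdr3Δ and 7 and 6 counts in PSD1 overexpression, against 12 and 14 counts in WT. The opposite-strand locus YPR044C, which covers 99.3% of its coding bases, had 6279 and 5672 counts in pdr3Δ and 5137 and 4602 counts in PSD1 overexpression, against 8946 and 9051 counts in WT. It was lower in PSD1 overexpression than in WT by 0.75 on the log2 scale (adjusted p = 9.64e-07, edgeR). RPL22A, RPL28, RPL33A, RPL36B and RPL39 likewise had 89.0 to 95.2% of the joint counts at the other locus. In 12 of the 16 loci the share was within 6 percentage points of the overlap. RPP0 (6.54% of counts, 47.8% of bases) and RPL12B (11.7%, 62.5%) lay far below it. RPS27A (30.7%, 47.0%) and RPL7B (36.0%, 49.0%) lay below it by less.

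**Figure D5:**
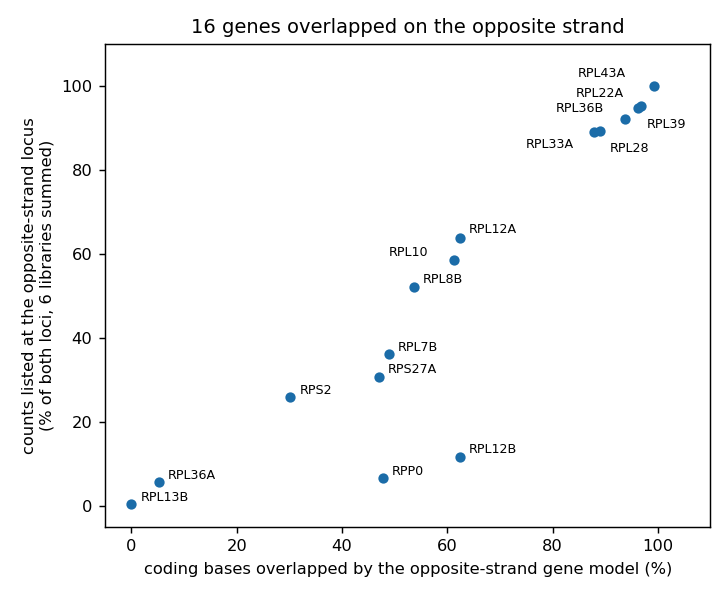
Counts listed at the opposite-strand locus, in percent of both loci (vertical axis), against the percent of the gene's coding bases that it overlaps (horizontal axis), for the 16 genes. The points rise together up to RPL43A at 99.3 and 99.9%, and RPP0 and RPL12B lie below the others.

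These opposite-strand loci moved with their partners. In PSD1 overexpression over WT 14 of the 16 were called lower and none higher (edgeR, 1720 of 6171 loci called lower). Whether the libraries or the counting kept strand is not given, so reads of the gene and of its antisense partner cannot be told apart. Adding the partner's counts changes which copy is listed as major. The A share over all libraries goes to 63.7% with them, against 0.203% without, for RPL43, to 80.2% against 16.5% for RPL22, to 66.2% against 17.7% for RPL33 and to 28.0% against 82.5% for RPL36. The medians hardly moved, and RPL43A was then called in each comparison, with a log2 fold change of 0.17 in pdr3Δ over PSD1 overexpression (adjusted p = 0.0397, edgeR).

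In the 50 pairs free of such overlaps the A copy was the major one in 29, and 27 pairs had an A share between 40 and 60%. The A share ran from 24.7% for RPS9 to 96.4% for RPL15, with a median of 54.9%. Levels between genes are compared per kilobase of coding length. RPS31 (4261 CPM per kilobase, mean of 6 libraries) was the highest of the 137 genes, RPS12 (3095) was among the highest and RPL15B (78.4) was the lowest that no opposite-strand model overlaps. The highest deposited FPKM values were those of 4 short genes, RPL41B (78 bases, 70139 FPKM), RPL41A, RPL29 and RPS30A. For RPL41A the FPKM value was 88.4 times its CPM per kilobase in the first WT library, for RPL29 and RPS30A 7 to 8 times, and for RPL3, the longest, 1.07 times.

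Among 17 regulators of ribosomal protein genes, 7 fell and 3 rose in PSD1 overexpression over WT (edgeR), with a median log2 fold change of -0.04. Of all loci, 55.8% were called in this comparison, 27.9% lower and 27.9% higher, so the number of regulators called was close to the background. RAP1 had 149 and 147 CPM in PSD1 overexpression, against 187 and 181 CPM in WT (-0.32, adjusted p = 0.000237, edgeR). HMO1, a protein that binds many of these promoters, fell by 0.36, and TOD6, a repressor of ribosome biogenesis genes, by 0.62. SFP1 rose by 0.28 and CRF1, a corepressor that competes with Ifh1 for Fhl1, by 0.61 (adjusted p = 0.00108, edgeR). IFH1 rose by 0.25, in a locus that it shares with another gene. Of the 17, 3 rose (RAP1, ABF1 and TOD6) and none fell in pdr3Δ over PSD1 overexpression, where 20.9% of all loci were called. In pdr3Δ over WT 1 rose (CRF1) and 2 fell (HMO1 and TOD6), where 39.1% of all loci were called.

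Dedicated chaperones hold single ribosomal proteins until assembly. Of 10 such genes, 6 fell and 1 rose in PSD1 overexpression over WT, with a median log2 fold change of -0.24, where 27.9% of all loci were lower and 27.9% higher. TSR2, which escorts Rps26, fell by 0.44 and SYO1, which carries Rpl5 and Rpl11, by 0.37, and YAR1, which escorts Rps3, rose by 0.18. Of the 10, 4 rose and none fell in pdr3Δ over PSD1 overexpression (11.8% of all loci higher, 9.12% lower). In pdr3Δ over WT only YAR1 was called, higher by 0.26, where 39.1% of all loci were called. Of 19 elongation factors and ribosome-associated proteins, 16 fell and 1 rose in PSD1 overexpression over WT, with a median log2 fold change of -0.33, beside the same 27.9% of all loci in each direction. ASC1, a small-subunit protein that lacks an RPS name, had 1247 and 1198 CPM in PSD1 overexpression, against 2247 and 2370 CPM in WT (-0.92, adjusted p = 4.55e-07, edgeR). SSB1, an Hsp70 that binds nascent chains on the ribosome, fell by 0.80. CAM1, a translation elongation factor subunit, rose by 0.19 (adjusted p = 0.0277, edgeR). Of the 19, 4 rose and CAM1 fell in pdr3Δ over PSD1 overexpression, where 11.8% of all loci were higher and 9.12% lower. In pdr3Δ over WT 15 fell and none rose, where 19.5% of all loci were lower and 19.6% higher.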

How the data were processed

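RNeasy RNA from 6 W303 samples went into TruSeq libraries, per the labels. Cuffdiff 2.2.0, Cufflinks 2.2.0, TopHat2 2.0.9, SAMtools 0.1.18 and Bowtie2 2.1.0 are named with sacCer3 (R64) in the submitters' processing notes. No source used here gives their roles, the counting tool, the strand setting or the read length. The authors deposited raw whole-number counts for each locus and the matching FPKM values, per the file headers, with a merged set of gene models.

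The members and gene lists were chosen with earlier results of these data known. Genes were named by a rule on their rank in each comparison (largest and smallest changes, genes not called or against the majority, pairs with the smallest p, the stalk, extreme levels). RPL3, RPS31, RPS12, both RPL1 copies, RPS0, RPL12B, RPL28, RPL33A, RPL36B and RPL39 were chosen for naming with their values in view. The models matched the R64 reference in start and end at 99.74% of 5831 single-gene loci. RPL21A alone shares its locus with another gene (YBR190W), which was kept. All 137 genes passed the expression filter.

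The main test on counts was edgeR 4.0.16 (R 4.3.3), with TMM factors of 0.99 to 1.012, filterByExpr and a quasi-likelihood fit to the 6 libraries together (6171 loci, 3 residual degrees of freedom, biological coefficient of variation 4.66%). CPM values use TMM-scaled library totals, except CPM per kilobase, which uses plain totals. Over the members, the chi-square between replicates, divided by its degrees of freedom, was 3.57 in pdr3Δ, 9.14 in PSD1 overexpression and 15.4 in WT. Ribosomal pairs were matched by symbol and all others as reciprocal best hits (BLAST 2.17.0, e-value 1e-20, 80% coverage) of proteins translated from the R64 coding sequences, since no protein table was used here. Of 550 pairs, 502 had both copies tested. Their log2 ratios (0.5 added to each count) were tested with limma 3.58.1 with a variance trend. Adjusted p-values are Benjamini-Hochberg over all loci or all pairs, with a threshold of 0.05. DESeq2 1.42.0, FPKM with a pseudocount of 1 or 0.1, other scalings and filters, the replicate block and leaving out each library were alternatives. The fits were tested on simulated data. The upstream window was widened to 500 bases and the shorter Rap1 letters were added after motif shares in a shorter window were seen, and the alternative with opposite-strand counts was added after seeing the data. PSD1 and PDR3 served as a check of the labels.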

Additional observations from a re-analysis of the deposited data

How the results depend on the processing

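Results were recomputed under 17 alternatives for genes and 14 for pairs. Of the values of 91 named results, 1376 kept their direction and their side of the threshold, 71 lost a call, 15 gained one and 5 changed sign. The count of ribosomal protein genes called was 136 or 137 in PSD1 overexpression over WT and 135 or 136 in pdr3Δ over WT under every alternative run. In pdr3Δ over PSD1 overexpression it was 100, 88 with DESeq2, 72 with FPKM, and 0 to 110 when a library was left out, with the values for single libraries of 63, 48 and 0 given with that comparison. The median stayed between 0.18 and 0.27 when libraries were left out. Calls over all loci in this comparison moved in the same direction, from 1291 to 808 with DESeq2 and 825 with FPKM (pseudocount of 1). They became fewer when a library of either group compared was left out, and more when a WT library was left out. A lower count is therefore not particular to ribosomal protein genes. Pairs with a changed ratio ranged from 6 to 11 (14 with all libraries) in PSD1 overexpression over WT, from 0 to 5 (4) in pdr3Δ over PSD1 overexpression and from 3 to 6 (7) in pdr3Δ over WT when a library was left out. Calls over all pairs also became fewer in PSD1 overexpression over WT when a library was left out. The same held in pdr3Δ over PSD1 overexpression when a library of either group compared was left out. In pdr3Δ over PSD1 overexpression diffSpliceDGE called 2 ribosomal pairs and limma without a variance trend 1, where 105 and 64 of all pairs were called. The causes were not tested. Sign changes all concerned pdr3Δ over PSD1 overexpression and near-zero or sparse genes. RPL43A had 0.17 with opposite-strand counts added, against -0.81 without. When a library was left out, RPL6A ran from -0.0053 (without PSD1 overexpression replicate 1) to 0.0193, RPL6B from -0.0307 (without pdr3Δ replicate 1) to 0.0543, with -0.0158 without PSD1 overexpression replicate 2, and RPL7B from -0.0281 (without pdr3Δ replicate 1) to 0.2051.

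Replicate numbers are shared between groups, but same-numbered samples deviated together with correlations of only 0.03, -0.02 and 0.24 across loci, so they were not treated as paired. With the replicate block, 136, 104 and 136 ribosomal protein genes and 11, 3 and 6 ribosomal pairs were called. The order is PSD1 overexpression over WT, pdr3Δ over PSD1 overexpression and pdr3Δ over WT. Of all loci, 3491, 1393 and 2483 were called in the same order. Of all pairs, 237 were called in PSD1 overexpression over WT and 81 in pdr3Δ over PSD1 overexpression. Where a group kept a single library, that library was assumed to vary like the others. Depth was not limiting for most members, and RPL43A, with 2 to 14 counts, was the exception.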

Other observations

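RPP1, the RNase P and MRP subunit that the name rule also matched, had 66.3 and 65.1 CPM in PSD1 overexpression, against 75.4 and 74.8 CPM in WT. It was lower by 0.19 on the log2 scale (adjusted p = 0.0133, edgeR). It had 68.1 and 70.4 CPM in pdr3Δ, a log2 fold change of 0.08 over PSD1 overexpression (adjusted p = 0.380, edgeR).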
